A study of Mus musculus with 6 samples.

Results

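The sodium-proton exchangers *Slc9a5*, *Slc9a7*, *Slc9a8* and *Slc9a9* were examined in inguinal adipose tissue (iAT) of young mice, as 4 of the 19831 genes in the authors' deposited table. They were picked by symbol, with the values of this comparison already known and because *Slc9a9* was among the genes that were lowest relative to wild-type, so the genotype difference is given as a description without a test. The tissue came from 3 wild-type (WT) samples and 3 samples in which *Npffr1*, encoding the receptor of neuropeptide FF, was knocked out (Npffr1-KO), all at postnatal day 6, from mice kept under specific pathogen-free conditions. Total RNA was extracted from whole tissue with TRIzol and sequenced. The study's methods name male C57BL/6 mice for this age in general but do not describe the knockout line, and the labels state neither strain nor sex, nor the design of the deleted allele, nor whether each sample was 1 animal. The study's own account of this experiment is in an earlier publication, which was not used here.

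Sodium-proton exchangers are membrane proteins that carry a sodium or potassium ion one way and a proton the other way. At the plasma membrane they remove acid from the cytoplasm and help set cell volume. Inside the cell, on endosomes and the Golgi apparatus, they let protons out of the lumen and so work against the V-ATPase, the pump that acidifies these compartments. NHE9, the product of *Slc9a9*, sits on endosomes, NHE7 (*Slc9a7*) on the trans-Golgi network, NHE8 (*Slc9a8*) on the Golgi apparatus and on the apical membrane of some epithelia, and NHE5 (*Slc9a5*), best known from neurons, on the plasma membrane and recycling endosomes.

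The 4 genes lie on 4 chromosomes of the mouse genome build GRCm38, as annotated by GENCODE M21. *Slc9a9* spans chr9:94669909-95230445 on the plus strand, 561 kb with 16 exons in its coding transcript and a longest intron of 97.0 kb. *Slc9a7* spans chrX:20105754-20291807 on the minus strand, with 17 exons over 186 kb. *Slc9a8* spans chr2:167421712-167477000 on the plus strand, with 17 exons over 55.3 kb, and *Slc9a5* spans chr8:105348843-105369881 on the plus strand, the shortest of the 4, with 16 exons. Their spans thus differ far more than their annotated proteins, which have 644 residues for *Slc9a9*, 726 for *Slc9a7*, 576 for *Slc9a8* and 898 for *Slc9a5*.

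The 250 bases before the start of *Slc9a9*, and those before the start of *Slc9a8*, the member with the highest level, are printed to show how the 2 promoters differ in sequence (RefSeq, GRCm38.p6, plus strand, chr9:94669642-94669891 and chr2:167421460-167421709). They read 5' to 3', with each CpG in capitals.
*Slc9a9* upstream: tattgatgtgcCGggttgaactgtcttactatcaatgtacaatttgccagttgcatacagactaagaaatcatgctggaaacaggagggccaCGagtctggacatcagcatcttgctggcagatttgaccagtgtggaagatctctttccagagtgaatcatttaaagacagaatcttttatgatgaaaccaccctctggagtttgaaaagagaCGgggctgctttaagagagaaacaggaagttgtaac
*Slc9a8* upstream: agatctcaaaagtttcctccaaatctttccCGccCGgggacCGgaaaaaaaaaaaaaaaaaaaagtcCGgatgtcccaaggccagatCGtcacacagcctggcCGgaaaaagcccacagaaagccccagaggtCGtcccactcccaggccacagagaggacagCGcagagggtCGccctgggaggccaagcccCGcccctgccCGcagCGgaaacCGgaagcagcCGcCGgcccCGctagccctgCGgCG
The stretch before *Slc9a9* holds 3 CpG and that before *Slc9a8* holds 18. In the window of 300 bases that also takes in the first 50 bases of the transcript, *Slc9a9* had 6 CpG and a GC content of 43.7%, and 47.9% of the 32851 RefSeq mouse promoters had as few or fewer. The same window held 22 CpG in *Slc9a8*, 24 in *Slc9a7* and 20 in *Slc9a5*, against a median of 7 over all promoters, with a GC content of 61.3%, 70.7% and 60.7%. The RefSeq start lies upstream of the GENCODE gene for all 4 members, farthest for *Slc9a5*. The GC box GGGCGG, searched on both strands, was present in the windows of *Slc9a5*, *Slc9a7* and *Slc9a8*, absent from that of *Slc9a9*, and present in 35.7% of all promoters. None of the 4 windows held the TATA box TATAAA on either strand, which 13.6% of all promoters held. The CCAAT box, by those letters, was also absent from the 4 windows and present in 37.4% of all promoters. The cAMP response element TGACGTCA was absent from them too, and present in 1.79% of all promoters.

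The authors' table gives 1 value per gene and genotype, in normalized counts (reads divided by a library size factor), and these values add up to 23137343 in WT and 23640005 in Npffr1-KO. The values average to the mean over all 6 libraries, and their ratio was drawn toward no change for low genes. This log2 ratio was regressed on that of the reads worked out per library. The slope was 0.65 at a mean of 10 to 60 normalized counts and 0.97 at 300 to 500. From a mean of 60 upward, however, reads were accepted only where their log2 ratio was close to that of the genotype values. The slope of 0.97 was therefore partly set in advance. The slope of 0.65 came without this rule, so the slopes cannot show how the pull toward no change varies with level. The whole reads of each library were worked out from these values for *Slc9a9* and *Slc9a7*, but not for *Slc9a5* and *Slc9a8*, whose values are therefore given without a spread. The 6 libraries, with size factors from 0.916 to 1.04, are called a to c within each genotype because they could not be tied to sample numbers. *Npffr1* itself had 1, 0 and 5 reads in WT and no read in any Npffr1-KO library, too few for this gene to check each label. *Slc9a9*, in contrast, was measured with 1609 reads in WT and 350 in Npffr1-KO.

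*Slc9a9* was about 4-fold lower in Npffr1-KO iAT. WT libraries a, b and c had 464, 587 and 558 reads, or 448, 575 and 554 normalized reads. The Npffr1-KO libraries had 110, 114 and 126 reads, or 106, 115 and 137 normalized reads. All 3 Npffr1-KO libraries were below all 3 WT libraries, and the lowest WT library was still 3.26 times the highest Npffr1-KO library. The same order of the groups, without an overlap, was found for 12.5% of the 5268 genes with reads worked out that averaged 10 or more normalized counts, and by the ratio of these nearest libraries *Slc9a9* was the 3rd of them. For *Slc9a9*, however, the search took only reads near the 2 genotype values, at an assumed relative spread of 15%. An overlap could therefore not have come out, and the separation is not evidence apart from those values. The mean of *Slc9a9* was 526 ± 67.8 normalized reads in WT and 119.5 ± 16.2 in Npffr1-KO (SD, n = 3 each), a relative spread of 12.9% and 13.6% of the mean. The search allowed no large spread for this gene, so these SDs do not show how far replicates may differ. From the reads the difference was a log2 ratio of -2.14, or 4.40-fold. Single pairs of a WT and an Npffr1-KO library gave between -1.70 and -2.44. The authors' genotype values, 520 in WT and 125 in Npffr1-KO, gave -2.06, so that Npffr1-KO iAT had 24.0% of the WT value. Only 2 of the 15309 genes averaging 10 or more had a lower log2 ratio. In this sequencing of whole tissue, fewer cells that express *Slc9a9* and less *Slc9a9* RNA per cell cannot be told apart.

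**Figure D1:**
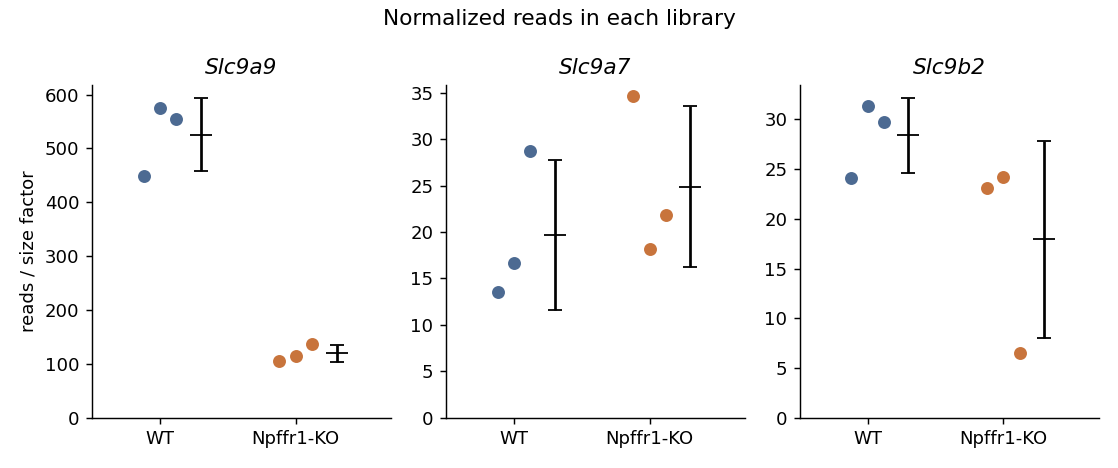
Reads divided by the library size factor (vertical axis, from 0, a different range in each panel) for *Slc9a9*, *Slc9a7* and *Slc9b2*, with 1 point per library and the mean ± SD of the 3 libraries of each genotype beside the points. The Npffr1-KO libraries of *Slc9a9* lie between 106 and 137 and the WT libraries between 448 and 575, while the groups overlap for the other genes. For *Slc9a9* the search took only reads near the genotype values, so that an overlap could not appear.

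The other 3 members did not share the difference of *Slc9a9*. *Slc9a7* had 14, 17 and 29 reads in WT and 36, 18 and 20 in Npffr1-KO. After division by the size factors this was 13.5, 16.6 and 28.8 in WT and 34.7, 18.2 and 21.8 in Npffr1-KO, so the groups overlapped, and the highest WT library was above 2 of the 3 Npffr1-KO libraries. The means were 19.6 ± 8.06 and 24.9 ± 8.68 normalized reads (SD, n = 3 each), with a log2 ratio of 0.34 from the reads and 0.27 from the genotype values of 20.2 and 24.3. Leaving out 1 library in turn moved the log2 ratio of *Slc9a7* from 0.03, without Npffr1-KO library a, to 0.72, without WT library c, so its size rested on single libraries. *Slc9a8* had 1046 normalized counts in WT and 985 in Npffr1-KO, a log2 ratio of -0.09. *Slc9a5* had 423 and 332, a log2 ratio of -0.35. By a fixed size of 0.5 on the log2 scale, 1 of the 4 members was lower in Npffr1-KO and none was higher, where 4.78% of the 15309 genes averaging 10 or more were lower and 4.37% were higher. This size is not a test, and the median log2 ratio over these genes was 0.01.

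Median log2 ratios differed between classes of gene length in this table, and the members were therefore also set against genes of like length. The median log2 ratio of genes of like length, in 20 classes, was -0.03 for *Slc9a9*, 0.03 for *Slc9a7*, -0.06 for *Slc9a8* and -0.11 for *Slc9a5*. Less this median, the log2 ratio was -2.03 for *Slc9a9*, 0.24 for *Slc9a7*, -0.02 for *Slc9a8* and -0.24 for *Slc9a5*. The genomic span of *Slc9a9* exceeded that of 99.2% of the placed genes averaging 10 or more. Of the 412 genes spanning at least 300 kb, 58 were lower in Npffr1-KO by at least 0.5 on the log2 scale, or 14.1%, and 10 were higher, with a median of -0.17. Among these long genes *Slc9a9* had the second lowest ratio, after *1700112E06Rik* at -2.46. The part that span has in the value of *Slc9a9* was not tested.

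Compared per kb of gene length, the level of *Slc9a9* went from the second place among the 4 members in WT to the third place in Npffr1-KO. In WT iAT the values per kb were 236 normalized counts for *Slc9a8*, 149 for *Slc9a9*, 81.0 for *Slc9a5* and 8.19 for *Slc9a7*. In Npffr1-KO iAT they were 222 for *Slc9a8*, 63.7 for *Slc9a5*, 35.7 for *Slc9a9* and 9.85 for *Slc9a7*. The *Slc9a9* libraries ranged from 128 to 165 normalized reads per kb in WT, all above the *Slc9a5* value, and from 30.4 to 39.4 in Npffr1-KO, all below it. The search for reads limited both ranges in advance. *Slc9a8* was 1.59 times *Slc9a9* in WT and 6.23 times in Npffr1-KO. The sum of the 4 members per kb was 474 in WT and 332 in Npffr1-KO, and *Slc9a9* made up 31.4% of it in WT and 10.8% in Npffr1-KO. The share of *Slc9a8* was 49.8% and 67.1%, that of *Slc9a5* 17.1% and 19.2%, and that of *Slc9a7* 1.73% and 2.97%. Among all listed genes the WT level of *Slc9a9* per kb was above that of 56.3%, and its Npffr1-KO level above that of 37.7%, so it was a gene of middling abundance in this tissue. *Slc9a8* was above 65.3% and 64.2% of the genes, *Slc9a5* above 46.5% and 43.7%, and *Slc9a7* above 25.3% and 27.0%.

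**Figure D2:**
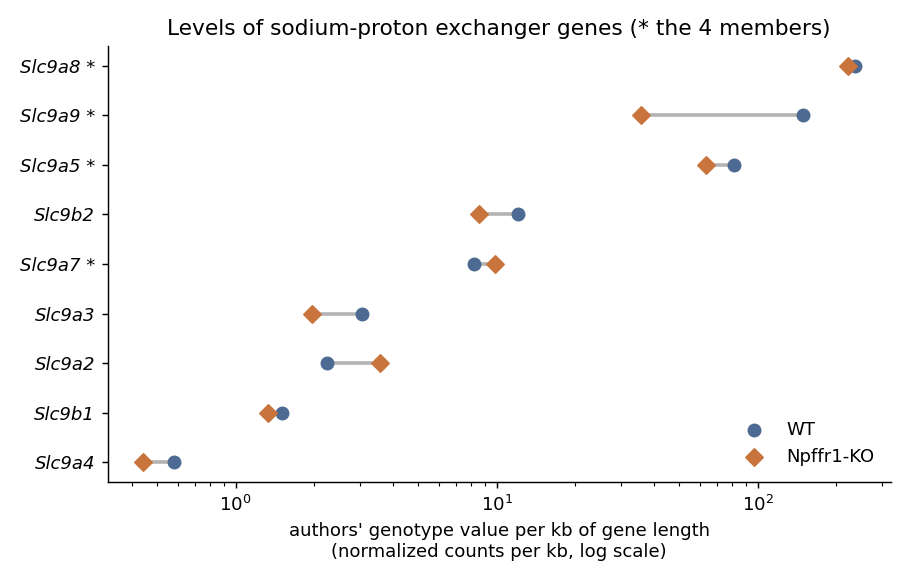
Authors' genotype value per kb of gene length (horizontal log axis, normalized counts per kb) for 9 listed genes of the family, with circles for WT, diamonds for Npffr1-KO and a grey line between them. *Slc9a9* has the longest line among the genes above 20 normalized counts per kb, from 149 to 35.7, and passes below *Slc9a5*.

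Of 12 other family symbols looked for, 7 were in the table. *Slc9b2* encodes NHA2 and had 25, 32 and 30 reads in WT and 24, 24 and 6 in Npffr1-KO, with a log2 ratio of -0.50 from the genotype values, just short of the fixed size, and of -0.66 from the reads, which is past it. Its normalized reads overlapped, since the highest Npffr1-KO library, 24.2, was just above the lowest WT library, 24.1. Per kb the WT libraries of *Slc9b2*, 10.8 to 14.0, also overlapped those of *Slc9a7*, 5.48 to 11.7, so these neighbours in the order did not differ beyond their spread.

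The exchangers known from the plasma membrane of epithelia were near the floor. *Slc9a2* (NHE2) had 0, 8 and 9 reads in WT and 5, 14 and 23 in Npffr1-KO, groups that overlapped, with a log2 ratio of 0.67 from the genotype values and 1.39 from the reads. *Slc9a3* (NHE3) had 4, 8 and 15 reads in WT and 6, 3 and 2 in Npffr1-KO, and *Slc9a4* (NHE4) had 4, 6 and 0 in WT and 0, 2 and 0 in Npffr1-KO. *Slc9b1* (NHA1), known from sperm, had 12 reads in WT, all in library c, and 1, 4 and 2 in Npffr1-KO. Of the 4 other family genes averaging 10 or more, 1 was higher by the fixed size on the genotype values, *Slc9a2*, and none was lower, with a median log2 ratio of -0.13. By reads *Slc9b2* would count as lower.

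In 6 lists of genes around the exchangers, the other family genes included, 91 genes averaged 10 or more, of which 4 were higher, 2 were lower and 85, or 93.4%, lay between, against 90.8% of all genes, with a median of 0.03 against 0.01 for all genes. Among the 16 partners of the exchangers, 1 was higher and 1 was lower, with a median of -0.01. These were relatives of each other: *Tesc*, which encodes the calcineurin B homologous protein tescalcin, had 112 normalized counts in WT and 220 in Npffr1-KO (log2 ratio 0.98), and *Chp2*, of the same protein group, had 294 and 176 (-0.74). *Chp1*, the third of that group, had a log2 ratio of -0.09, and the highly expressed *Rack1*, a scaffold protein, and *Msn*, which links membrane proteins to actin, had 0.27 and 0.07.

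The V-ATPase, whose proton pumping the endosomal exchangers counter, had 20 genes averaging 10 or more, and 15 of them, or 75.0%, had a log2 ratio above 0, against 51.2% of all genes, with a median of 0.18 against 0.01. By the fixed size none was higher and 1 was lower, *Atp6v1g2*, a stalk subunit with 227 normalized counts in WT and 160 in Npffr1-KO (-0.51). *Atp6v0d2* came next in size at 0.48, from 20.8 to 28.9 normalized counts. For genes this low the ratio of the genotype values was drawn toward no change, so a count by the fixed size may miss such a gene. The most abundant genes of the pump were *Atp6v0c*, which encodes the ring subunit, at 0.15, the accessory *Atp6ap1* at 0.15 and *Atp6v0a1* at -0.05. In other lists the ratio was above 0 for 12 of 18 acid-base genes (66.7%) and 3 of 13 organelle channels and carriers (23.1%). It was above 0 for 8 of 16 partners, 9 of 20 endosome and Golgi genes and 1 of 4 other family genes. Less the median of genes of like length, the median was 0.09 for the V-ATPase, 0.13 for acid-base genes and -0.12 for the organelle list. It was 0.0004 for partners, 0.03 for endosome and Golgi genes and -0.03 for other family genes. A shift from 0 was thus not particular to the V-ATPase.

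Channels and carriers of organelle membranes had 13 genes averaging 10 or more, none of them past the fixed size in either direction, with a median of -0.09. The largest were *Clcn6*, a chloride-proton exchanger of late endosomes, at -0.39 and *Tpcn2*, a cation channel of lysosomes, at -0.37, and the most abundant were *Tpcn1* at -0.05, *Clcn4* at 0.08 and *Tmem165*, of the Golgi apparatus, at -0.12. Acid-base carriers and enzymes of the cell surface and cytoplasm had 18 such genes, of which 1 was higher, with a median of 0.12. This was *Car12*, a carbonic anhydrase of the plasma membrane, with 36.1 normalized counts in WT and 64.2 in Npffr1-KO (0.83), followed by *Slc4a8*, a sodium-driven bicarbonate carrier, at 0.41. *Car3*, the carbonic anhydrase abundant in fat, had 0.12 and the carrier chaperone *Bsg* 0.06.

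Genes of endosomes and the Golgi apparatus, where NHE9, NHE8 and NHE7 reside, had 20 genes averaging 10 or more, a median of -0.01, 1 higher and none lower. The higher gene was *Tfrc*, the transferrin receptor that cycles through recycling endosomes, with 896 normalized counts in WT and 1533 in Npffr1-KO (0.77). *Rab4a*, a small GTPase of fast recycling, came next at 0.45. The most abundant, *Lamp1* of lysosomes, *Rab7* of late endosomes and *Rab5c* of early endosomes, had 0.09, -0.02 and 0.12. The lowest log2 ratio among the 91 listed genes was the -0.74 of *Chp2*, against -2.06 for *Slc9a9*.

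**Figure D3:**
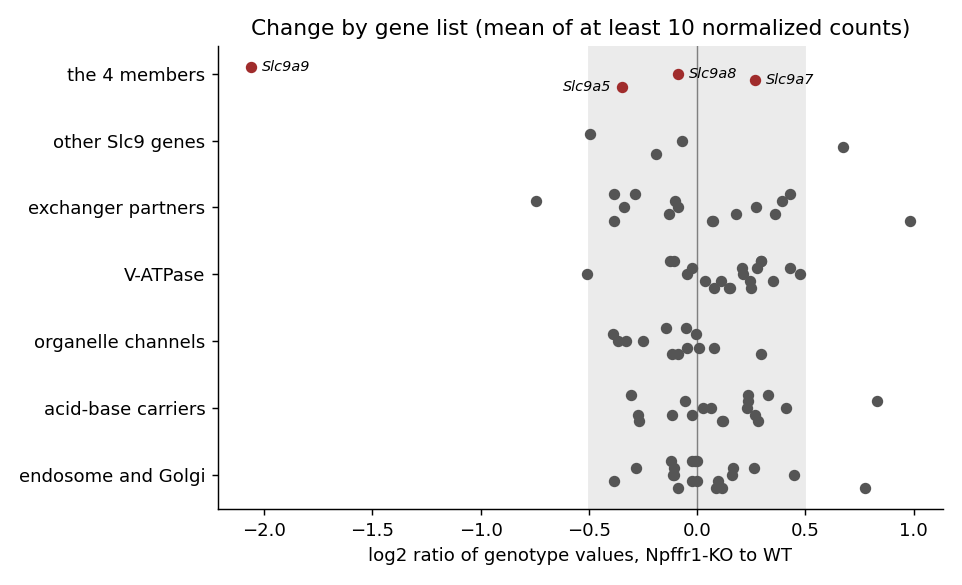
Log2 ratio of the genotype values, Npffr1-KO to WT (horizontal axis), with 1 point per gene for the 4 members (red) and for the 91 genes of the 6 lists averaging 10 or more normalized counts (grey); the shaded band marks less than 0.5 in size. *Slc9a9* stands at -2.06, and the listed genes range from -0.74 to 0.98.

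On the chromosome, the nearest genes did not share the difference of *Slc9a9*. The 3 nearest listed genes averaging 10 or more on each side had log2 ratios from -0.23 to 1.36, with none lower by the fixed size. Before *Slc9a9* came *1190002N15Rik*, 132 kb away, at 0.25. Beyond a long gap without such genes lay *Plod2*, a collagen lysyl hydroxylase 2061 kb away, at 0.17 and *Plscr4*, a scramblase 2177 kb away, at -0.23. After it came *Chst2*, a sulfotransferase 169 kb away, at -0.02, the splicing-related *U2surp* at 0.12 and *Paqr9*, 329 kb away, at 1.36, with 295 normalized counts in WT and 755 in Npffr1-KO. *Paqr9* thus differed in the direction opposite to *Slc9a9*. Inside the *Slc9a9* span GENCODE annotates an antisense gene, *Gm16262*, a miRNA, *Mir7656*, and a pseudogene, *Gm47168*, which were not analysed here. Whether the counting used strand is not stated, so reads of *Slc9a9* and of its antisense gene could not be told apart. None of the 5646 distinct stretches of 31 bases in the *Slc9a9* transcripts occurred in transcripts of another gene.

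**Figure D4:**
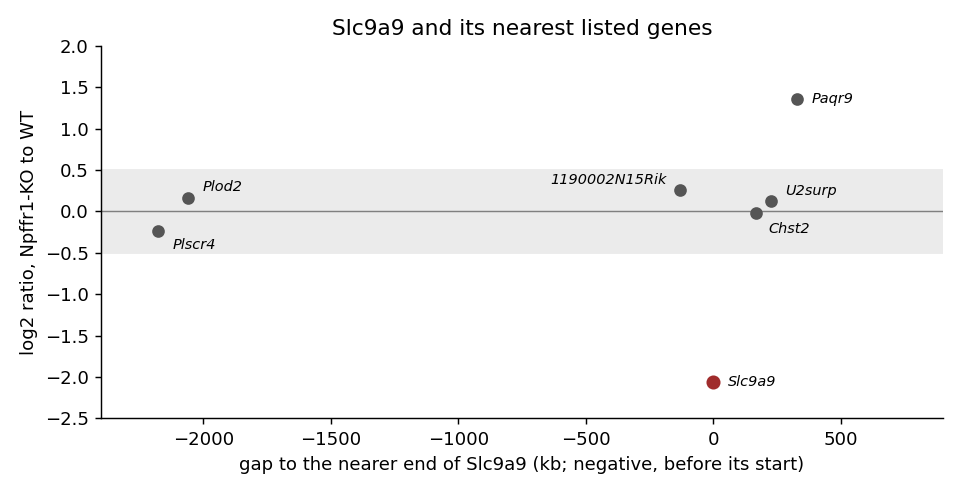
Log2 ratio, Npffr1-KO to WT (vertical axis), of *Slc9a9* (red) and of its 3 nearest listed genes on each side (grey), against the gap in kb to the nearer end of *Slc9a9* (horizontal axis); the shaded band marks less than 0.5 in size. The neighbours lie between -0.23 and 1.36 and *Slc9a9* lies at -2.06.

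Over all 4 members, 21 of the 24 neighbours, or 87.5%, were within the fixed size, against 90.8% of all genes. Around *Slc9a8* all 6, among them *B4galt5*, *Ptgis*, *Spata2*, *Rnf114* and *Snai1*, lay between -0.10 and 0.10, as *Slc9a8* did. Of all genes averaging 10 or more, 51.2% had a log2 ratio above 0. Around *Slc9a5*, in a gene-dense stretch, 5 of the 6 had a negative log2 ratio and the median was -0.32, near the -0.35 of *Slc9a5* itself. *Fhod1*, 0.89 kb before it, had -0.34, *Lrrc29* -0.20, *Plekhg4* -0.30, *Lrrc36* -0.44 and *Kctd19* -0.86, the last with 31.3 and 17.2 normalized counts, while *Tmem208* had 0.26. Around *Slc9a7*, *Chst7*, *Kdm6a*, *Rp2*, *Jade3* and *Ndufb11* ranged from -0.06 to 0.40 and *4930578C19Rik* had -0.74. Of these, *4930578C19Rik* lay 1644 kb and *Kdm6a* 1826 kb away. In the *Slc9a7* transcripts 0.651% of the stretches of 31 bases were shared with 5 other genes, in those of *Slc9a8* 0.720% with 987 others, and in those of *Slc9a5* none.

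The genes whose pattern over the 6 libraries was most like that of *Slc9a9* were *1700112E06Rik*, *Vstm5*, *Duxbl2*, *Duxbl3* and *Acr*, in this order, with root mean square distances from 0.46 to 0.48 on the log2 scale among 5267 genes compared. *1700112E06Rik* had 155, 170 and 152 normalized reads in WT and 16.4, 16.1 and 38.2 in Npffr1-KO, a larger difference than that of *Slc9a9*. *Acr*, the gene of the sperm protease acrosin, had 183, 198 and 201 in WT and 59.7, 101.9 and 51.3 in Npffr1-KO. *Duxbl2* and *Duxbl3*, which encode homeobox proteins, had the same reads in every library, 100, 116 and 120 in WT and 43, 53 and 29 in Npffr1-KO, so that they count as 1 measurement that the counting may have split between copies. *Vstm5* was the lowest of them, with 17, 38 and 29 reads in WT and 7, 12 and 6 in Npffr1-KO. In none of these genes did the groups overlap, but this likeness includes the genotype difference by which *Slc9a9* was noticed.

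The labelled tissue was checked by its markers. All 10 adipocyte markers were present, led by *Fabp4* at 156285 and *Cfd* at 92905 normalized counts in WT, and their sum in Npffr1-KO was 103% of that in WT, with log2 ratios of 0.15 and -0.13 for these genes. The sum of progenitor markers was 78.6% of WT (*Fbn1*, -0.26, and *Dlk1*, -0.87), that of endothelial markers 78.1% (*Cdh5*, -0.37, and *Pecam1*, -0.28), that of mural cell markers 86.6% (*Rgs5*, -0.19, and *Acta2*, -0.12) and that of neural and Schwann cell markers 72.6%. Macrophage markers stood at 117% (*Lyz2*, 0.37, and *Csf1r*, -0.07) and lymphocyte markers at 136% (*Cd79a*, 0.33, and *Lck*, 0.74). Muscle markers were low, with a sum of 564 normalized counts in WT and 996 in Npffr1-KO (*Acta1*, 1.26, and *Tnnt3*, 0.75), and epithelial markers lower still, with 240 and 202 (*Cdh1*, -0.72, and *Krt10*, -0.13). By the fixed size, lower markers numbered 1 of 8 for progenitors, 1 of 8 for endothelium, 1 of 8 for mural cells, and 2 of the 6 neural and 1 of the 4 epithelial markers averaging 10 or more, while 5 of 8 lymphocyte and 5 of 8 muscle markers, 1 of 10 adipocyte markers and 1 of the 6 neural markers were higher. Over all genes 4.78% were lower and 4.37% higher by this size. The lowest of these sums relative to WT was that of the neural and Schwann cell markers. A sum follows its most abundant genes, and the log2 ratios of single neural markers averaging 10 or more ranged from -0.82 to 0.65. The part of these cell types in the value of *Slc9a9* was not tested.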

How the data were processed

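RNA of 3 WT and 3 Npffr1-KO samples of mouse iAT, grouped by the sample labels, was analysed. The deposited table holds 1 signal per gene and genotype, which the authors made from read counts divided by library size factors, and the gene length in bases. The submitters' processing notes name Bowtie2, RSEM and DESeq2, so a read may be a rounded estimate. For their versions, the genome build and the annotation, the sources used here give nothing. The authors' fold changes, p-values and adjusted p-values, and a second table of 90 genes chosen by them, were not used, and their ratio of values equals their fold change.

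Members and lists were chosen with earlier results of these data known. Values of single-read genes form 6 steps, which give the size factors, and the direction of their change gives the genotype of the library. For genes with a mean of up to 500, whole reads of the 6 libraries were searched by lattice reduction (Python 3.11.15, NumPy 2.4.6, SymPy 1.14.0, Numba 0.67.0), and a single solution was accepted where at most 0.05 were expected from chance. For *Slc9a9* the space searched was as large as this limit of 0.05 allows. Within the distance of the solution found 0.023 were expected, and a wider search found no other solution. *Slc9a5* gave none, and *Slc9a8* exceeded the limit. Reads were found for 97.2% of genes with a mean of 10 to 60 and for 42.4% at 300 to 400. In simulated data with known reads, the search found 28.2% of genes with a mean of 300 to 400, and 98.6% of those found were right. The simulation used the relative spread that the search assumes, so it does not show how the search handles noisier genes.

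No test was run. Where reads were found, library values are given only for members, other family genes, *Npffr1* and the genes most like *Slc9a9*. Genes of the other pathway lists, neighbours and markers are given by their genotype values without a spread. Reads carry no molecular identifiers, and whether samples are separate animals is not stated. Log2 ratios used no pseudocount, and counts of genes used a mean of at least 10 and a size of 0.5. Places came from GENCODE M21 (GRCm38), matched through Entrez numbers for 17981 genes, and promoters from RefSeq (GRCm38.p6). Named are the members, the listed family genes, of each pathway list the 3 with the highest mean and the 2 with the largest ratio, 3 neighbours on each side, 2 genes per marker list and the 5 genes most like *Slc9a9*, and some genes that this rule names are not reported here. Alternatives were a pseudocount of 1 or 10, subtracting the median of all genes or of genes of like length, reads per library, leaving out each library, and other limits.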

Additional observations from a re-analysis of the deposited data

How the results depend on the processing

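Of 42 alternative values, 35 kept the direction and stayed within set bounds, and 7 moved. The bounds were the replicate SD for *Slc9a9* and *Slc9a7*, 1.5 times for counts and, for *Slc9a5* and *Slc9a8*, which have no replicate spread, the 95% binomial interval of reads approximated as 3 times each genotype value, covering counting error only. For *Slc9a9* the search for reads limited the replicate SD in advance. Centring on genes of like length took *Slc9a8* from -0.09 to -0.02 and *Slc9a5* from -0.35 to -0.24. The log2 ratio of *Slc9a9* was -2.06, and pseudocounts, centring and reads per library gave -1.98 to -2.14. Leaving out 1 library gave -2.25 to -2.06 for *Slc9a9* and 0.03 to 0.72 for *Slc9a7*. The place of *Slc9a9* among the members was 2 by the WT value per length and 3 by the Npffr1-KO value. Of the listed pathway genes 4 were higher and 2 lower. These counts were 22 and 15 at a log2 ratio of 0.25, and 0 and 0 at 1, by the limit itself. With a mean of at least 100, 2 were higher, and with no filter on low values 5 were lower, since other genes were then counted. Reads per library and leaving out a library could not be run for *Slc9a5* and *Slc9a8*. No paired analysis was possible because the table carries no replicate numbers and no test was run. Depth limits *Slc9a7*, with 60 and 74 reads in the 2 genotypes.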
